A study of Mus musculus with 2 samples.

Results

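The Hox genes and the CTCF sites inside their 4 chromosomal clusters were examined in forebrain of newborn mice. The members were chosen from a list of gene names and 4 fixed stretches of the mm10 assembly, not from any measured value. Earlier results of these data were known when they were chosen. The list held 38 of the 39 Hox genes, out of 21938 protein-coding genes in the annotation, and the remaining Hox gene was not analysed here. All 38 names were found in the annotation. The stretches were chromosome 6 from 52100000 to 52300000 (Hoxa), chromosome 11 from 96150000 to 96420000 (Hoxb), chromosome 15 from 102870000 to 103080000 (Hoxc) and chromosome 2 from 74620000 to 74810000 (Hoxd). They held 31 of the 56462 peak summits placed on chromosomes in the authors' optimal peak list, and these 31 summits are the sites described below.

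CTCF occupancy came from ChIP-seq (chromatin immunoprecipitation followed by sequencing), in which DNA bound by a protein is pulled down with an antibody and read. The series held 1 group of 2 libraries, both from forebrain of B6NCrl mice at postnatal day 0, and no treatment, mutant or second tissue. Per the labels, both libraries cite the same pulverized pool of several dissections, so the spread between replicate 1 and replicate 2 may be technical. The sources used here do not give the read depth, and peak lists carry no measure of expression, so the tissue label was not checked against marker genes.

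Hox genes encode homeodomain transcription factors that give cells their position along the head-to-tail axis. In mammals they lie in 4 clusters that arose by duplication, and genes at matching positions, called paralogues, share a group number. Within a cluster all Hox genes are read in the same direction, with group 13 at the 5′ end and group 1 at the 3′ end, and genes nearer the 3′ end are active earlier and farther forward in the embryo. The forebrain lies ahead of the region where Hox genes are normally active. The zinc fingers of CTCF recognise a long, non-symmetrical DNA motif, and with cohesin the protein anchors chromatin loops. At Hox clusters it is known to mark borders between active and Polycomb-repressed chromatin, and loops form mostly between sites whose motifs face each other, so the strand of each motif is given.

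The sequences that carry the comparison between clusters are shown first. Each is 30 bases of the mm10 genome, 5′ to 3′ on the strand named, and capitals mark the 14 bases that best match the CTCF core motif. A site "reads toward the 3′ end" when its match lies on the strand of Hox transcription and "reads toward the 5′ end" when it lies on the other strand. In all 4 clusters a strong site lay upstream of a group 8 gene or, in Hoxa, which has no group 8 gene, of the group 7 gene. These 4 sites read toward the 3′ end.
Hoxa9 to Hoxa7, chr6:52221807-52221820, minus strand: agaaaattCCAGGAGATGGCAGtgtggctc
Hoxb9 to Hoxb8, chr11:96278948-96278961, plus strand: cacagtggCCGCTAGATGGCATccttgctc
Hoxc9 to Hoxc8, chr15:102987593-102987606, plus strand: acaagtgaACGCGAGGTGGCGCtgttgctc
Hoxd9 to Hoxd8, chr2:74702395-74702408, plus strand: gcatttggCCACTAGAGAGCGCtgttgctc

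A further set lay close to the start codon of the group 5 genes, of which there are 3, and all 3 sites read toward the 3′ end. They are shown because position and strand repeated across the clusters while the letters around the match did not.
Hoxa5, chr6:52204657-52204670, minus strand: cccagtctCCAGCGGGTGGCGCtcgagtcc
Hoxb5, chr11:96303245-96303258, plus strand: gtcaatcgCCGGGAGGTGGCGCgctctgct
Hoxc5, chr15:103013702-103013715, plus strand: ccgagtcgGCACCAGGTGTCGCtgtgagct

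The group 10 genes, also 3, had the same arrangement just upstream of their start codon, and 2 of them had a second site inside the coding exon, reading toward the 5′ end. The coding-exon pair is shown because it was the most alike of all pairs of sites.
Hoxa10 upstream, chr6:52240539-52240552, minus strand: cgcagccgCCACGAGATGGCGCactcccga
Hoxc10 upstream, chr15:102966572-102966585, plus strand: cgaggcagCTGCTAGGTGGCGCtgttactc
Hoxd10 upstream, chr2:74691763-74691776, plus strand: acaggcgcTTAGTAGATGTCGCtgttgtcc
Hoxc10 coding exon, chr15:102970934-102970947, minus strand: cttgctaaTCTCCAGGCGGCGCtctcgcgt
Hoxd10 coding exon, chr2:74694227-74694240, minus strand: cttactgaTCTCTAGGCGGCGCtcgcgggt

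The last sets are pairs from the Hoxa and Hoxb clusters at matching positions, between groups 5 and 4 (reading toward the 3′ end) and between groups 7 and 6 (reading toward the 5′ end).
Hoxa5 to Hoxa4, chr6:52197464-52197477, minus strand: aggaatcgCCAGCAGAGCTCGCtttagtac
Hoxb5 to Hoxb4, chr11:96311742-96311755, plus strand: cggatctgCCAGTAGAGTCCGCcttagacc
Hoxa7 to Hoxa6, chr6:52211724-52211737, plus strand: ggcgacggCCACAGCGTGGCAGcagcgagc
Hoxb7 to Hoxb6, chr11:96294696-96294709, minus strand: ccgaacggACGGTAGATGGCAGcaaactgc

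CTCF sites in the Hox clusters were mostly strong ones. The signal value, a measure of peak strength from the authors' peak calling whose scale is not stated, had a median of 162 over the 31 sites against 64.3 over the whole optimal list. In replicate 1 the medians were 85.7 for the Hox sites and 34.9 for the list, and in replicate 2 they were 69.3 and 30.2. The Hox sites ranged from the 13.4th to the 98.7th percentile of the list. At or above the list's median stood 24 of 31 (77.4%, Wilson 95% interval 60.2 to 88.6%), against 50% of the list by construction. The strongest 25% of the list included 15 of 31 (48.4%, 32.0 to 65.2%) and the strongest 10% included 5 of 31 (16.1%, 7.09 to 32.6%). Intervals cover counting error only, and neighbouring sites are not independent.

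Replicate values lay close together at the Hox sites. Each replicate's value was that of its strongest peak overlapping the site, and the log2 ratio of replicate 1 to replicate 2 was centred on the median ratio of all sites. Its median over the 31 Hox sites was 0.08, with an SD of 0.21 against 0.50 over the list, and it ran from -0.29 at the site 4556 bp upstream of Hoxd13 to 0.49 at the weakest Hoxb site. A centred ratio beyond 1 in either direction was found at 0 of 31 Hox sites, for which the interval reaches 11.0%, and at 6.26% of the list. The Hox sites were stronger than the list, and no comparison at matched strength was made. All 31 sites overlapped a peak of the conservative list, the authors' stricter selection, as did 87.4% of the optimal list.

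**Figure D1:**
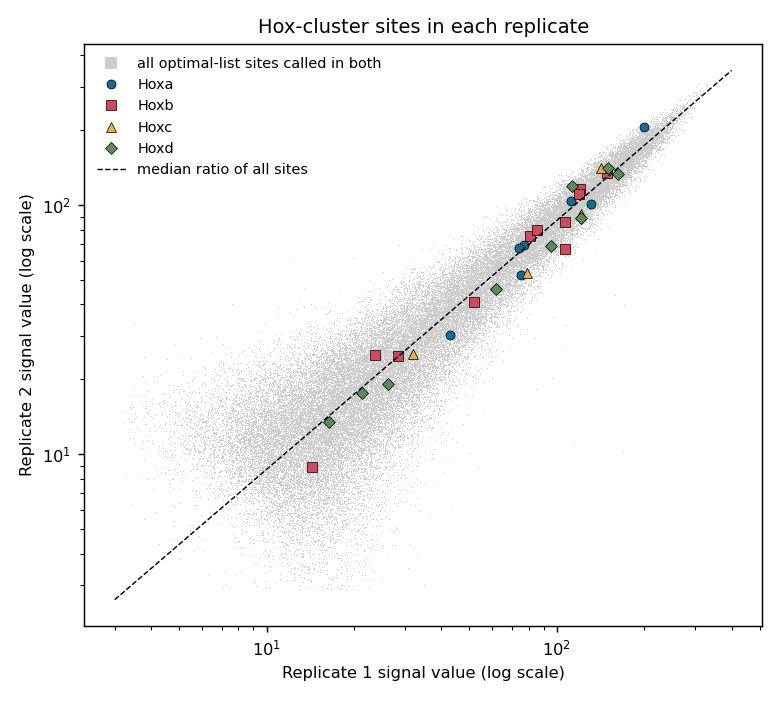
Signal value of each site in replicate 1 (x axis) and replicate 2 (y axis), both on log scales and in the peak caller's unit. Grey points are all optimal-list sites with a called peak in both replicates, coloured symbols the 31 Hox sites by cluster, and the dashed line the median ratio of all sites. The Hox sites lie along the line, with the Hoxa9 to Hoxa7 site at 200 and 207 uppermost and a Hoxb site at 14.3 and 8.88 lowest.

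The 4 clusters held unequal numbers of sites. Hoxa had 7 (3.5 per 100 kb, exact Poisson 95% interval 1.41 to 7.21), Hoxb 11 (4.07, 2.03 to 7.29), Hoxc 4 (1.9, 0.519 to 4.88) and Hoxd 9 (4.74, 2.17 to 8.99), and these intervals overlap. All regions together had 3.56 per 100 kb (2.42 to 5.06), against a genome mean of 2.13. The surroundings differed more than the clusters did. In 200 kb on each side, Hoxd had 2 further summits (0.5 per 100 kb) and Hoxa 7 (1.75), whereas Hoxb had 27 (6.75) and Hoxc 32 (8.0). Hoxd was denser than its flanks (0.0606 to 1.81) and Hoxc sparser than its own (5.47 to 11.3), beyond the counting intervals, while the intervals of Hoxa and Hoxb overlapped those of their flanks (0.704 to 3.61 and 4.45 to 9.82). Median signal values inside the clusters lay close together, at 147, 167, 172 and 162 in the order Hoxa to Hoxd. Those of the flanks were 32.2, 43.2, 157 and 121. Another summit lay within 10 kb of 20 of the 31 Hox sites (64.5%, 46.9 to 78.9%), against 60.4% of the list, so close spacing of this kind was near the background.

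**Figure D2:**
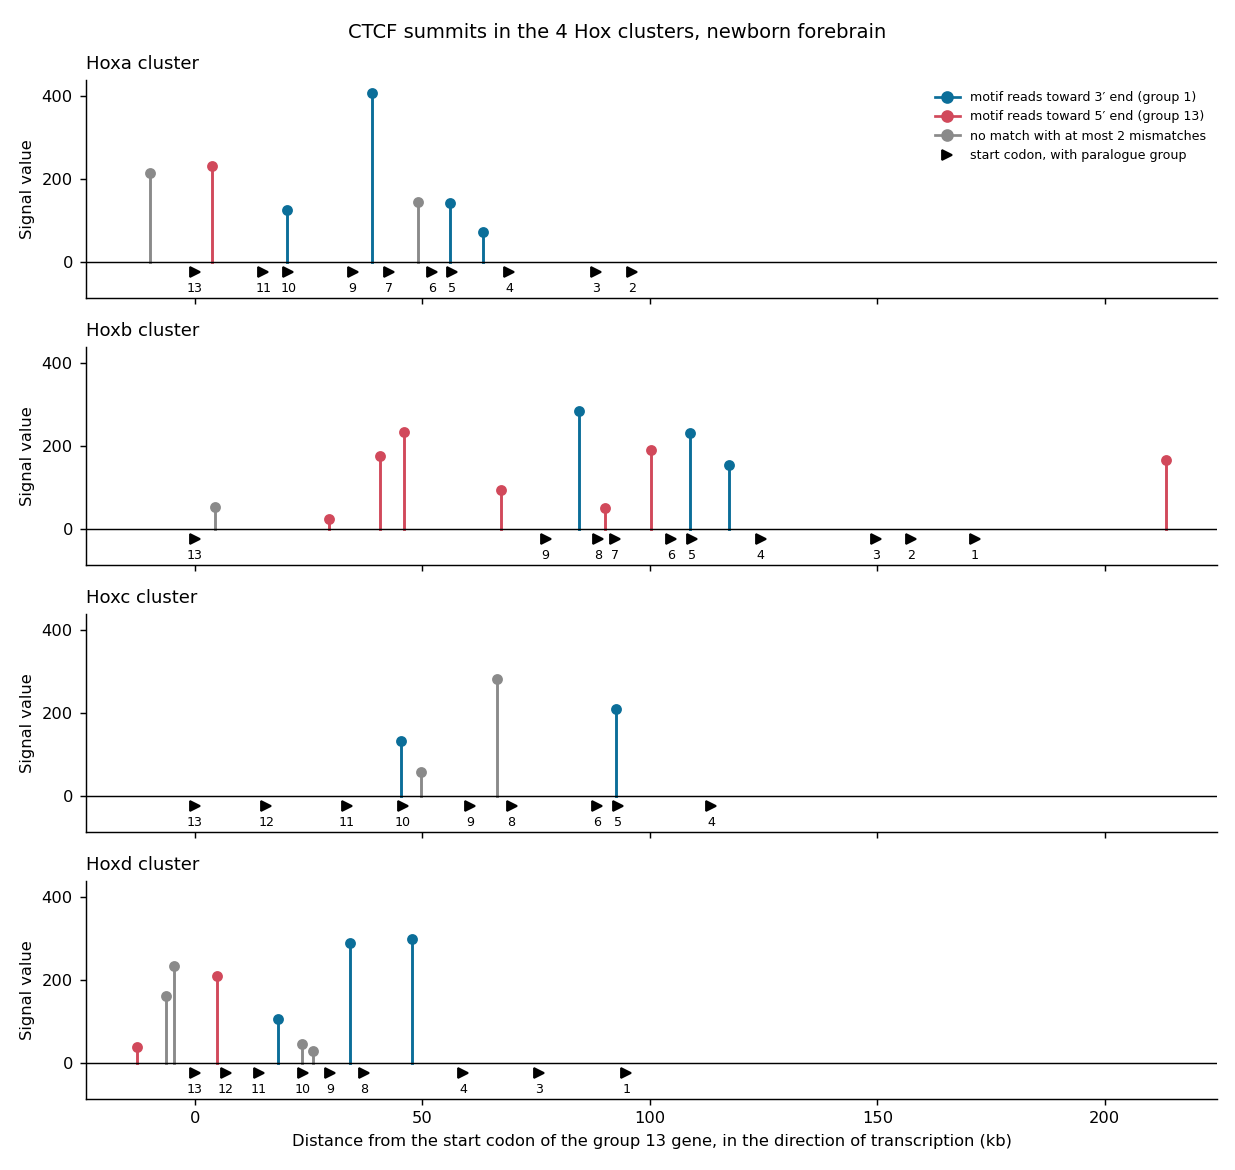
Sites of each cluster by distance from the start codon of the group 13 gene, in the direction of transcription (x axis, kb), and by signal value (y axis, from 0). Stems are coloured by the direction in which the motif reads, grey where no match with at most 2 mismatches was found, and triangles are start codons with their paralogue group. Sites crowd between groups 13 and 4, and none lies between the start codons of groups 4 and 1.

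With each cluster cut as described next, sites were denser in its 5′ part than in its 3′ part. From the start codon of the group 13 gene to that of the group 5 gene, or of the nearest gene on its 5′ side in Hoxd, there were 23 sites in 295.5 kb, or 7.78 per 100 kb. From there to the 3′-most gene analysed there were 3 in 180.1 kb, or 1.67 per 100 kb. With this cut the order held in each cluster: 8.87 against 2.52 per 100 kb in Hoxa, 8.26 against 1.61 in Hoxb, 4.31 against 0 in Hoxc and 13.4 against 1.74 in Hoxd. The Hoxa5, Hoxb5 and Hoxc5 sites lay only 306, 356 and 380 bp on the 5′ side of the cut and were counted there. Counted on the other side, the Hoxc5 site would reverse the order in Hoxc, and no other cut was tried. A further 4 sites lay beyond the group 13 genes and 1 beyond Hoxb1. Group 1 to 4 genes pattern the hindbrain and upper neck, the most forward domains of the family. Between their start codons lay 0 sites in 109.9 kb, made up of 27.0 kb in Hoxa, 47.1 kb in Hoxb and 35.8 kb in Hoxd. A count of 0 allows up to 2.73 per 100 kb (3 counts), which is above the genome mean, so the empty stretch by itself was not distinguishable from average density at this number of sites.

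The stretches without a summit were long. Downstream of the last site of the Hoxd cluster, 11344 bp before the Hoxd4 start codon, the next summit was 249 kb away and outside the region. In Hoxa that distance was 152 kb, in Hoxb 96.2 kb and in Hoxc 79.0 kb. Of the 38 genes, those whose start codons fell into these stretches were Hoxa2, Hoxa3 and Hoxa4, Hoxb1, Hoxb2, Hoxb3 and Hoxb4, Hoxc4 and Hoxc5, and Hoxd1, Hoxd3 and Hoxd4. Hoxc5 is among them because its site lies 380 bp upstream of its start codon.

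The 4 sites upstream of group 8 or group 7 were the strongest repeated element. The Hoxa9 to Hoxa7 site (chromosome 6, 52221676 to 52221954) had a signal value of 407, the highest of the 31, with 200 in replicate 1 and 207 in replicate 2. It was intergenic in the basic annotation, 3795 bp upstream of the Hoxa7 start codon and 42 bp from the 5′ end of the full Hoxa7 gene record. The Hoxb9 to Hoxb8 site (chromosome 11, 96278836 to 96279050), also intergenic, had 286 (149 and 135) and lay 4012 bp upstream of Hoxb8. In both replicates the Hoxa site was above the other 3 of this set. The Hoxc9 to Hoxc8 site (chromosome 15, 102987480 to 102987719) had 282 (142 and 141) and lay 3175 bp upstream of Hoxc8. The Hoxd9 to Hoxd8 site (chromosome 2, 74702287 to 74702515) had 289 (150 and 141) and lay 3152 bp upstream of Hoxd8. The values of the Hoxb, Hoxc and Hoxd sites lay close together, and the Hoxb and Hoxc sites changed order between the replicates. All 4 stood between the 90.3rd and 98.7th percentile of the list, and each was the only site in its interval. Group 9 and higher genes, which lie on the 5′ side of this position, are the relatives of Drosophila Abdominal-B that pattern the posterior trunk.

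Of these 4 matches, those in Hoxa and Hoxd had 1 mismatch to the motif, that in Hoxb 2 and that in Hoxc 3. The Hoxc and Hoxd sequences shared the last 12 of their 30 printed bases, and the Hoxb sequence shared the last 6 of those with both. Over the 66 bases flanking the match, the Hoxd site was 30.3% identical to each of the Hoxa, Hoxb and Hoxc sites. Identity was 24.2% for Hoxa with Hoxb, 40.9% for Hoxa with Hoxc and 42.4% for Hoxb with Hoxc. The median over all pairs of sites was 28.8%, so the likeness of Hoxc and Hoxd was near the median outside the shared ending. The 4 bases gctc end all 4 sequences and 1 other among the 30 sites with a match of at most 3 mismatches, the site between Hoxd13 and Hoxd12. This ending was picked after the sequences were seen.

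Hoxa5, Hoxb5 and Hoxc5 each had a site within 380 bp of the start codon. Group 5 genes act around the boundary of neck and thorax. The Hoxa5 site (chromosome 6, 52204631 to 52204737) had a signal value of 143, with 74.2 in replicate 1 and 67.5 in replicate 2, 306 bp upstream of the start codon and 69 bp from the transcription start site (TSS). The Hoxb5 site (chromosome 11, 96303142 to 96303358) had 232 (119 and 111), 356 bp upstream of the start codon and 254 bp from the TSS. The Hoxc5 site (chromosome 15, 103013598 to 103013798) had 212 (121 and 92.6), 380 bp upstream of the start codon and 113 bp from the TSS. In both replicates the Hoxa5 site was the weakest of the 3. By the basic annotation the Hoxc5 site was intergenic, while the other 2 lay in introns of longer transcripts that run across them, Gm28308, Hoxa3 and Hoxaas3 at Hoxa5 and Hoxb5os at Hoxb5. Mouse Hoxd has no group 5 gene. Its only site between Hoxd8 and Hoxd4 (chromosome 2, 74715818 to 74716069) had 299.7 (163 and 134) and lay 61 bp from the TSS of Hoxd3os1, a noncoding RNA gene, in an exon of it and an intron of Hoxd3. It read toward the 3′ end as well, with 2 mismatches (chr2:74715921-74715934, plus strand).
Hoxd8 to Hoxd4: agctttgtCCAGGAGGAGGCGCtgtaggac

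The group 10 sites were closer still to the start codon. Group 10 genes are known for patterning the lumbar spine and hindlimb. Upstream of Hoxa10 the site (chromosome 6, 52240488 to 52240605) had a signal value of 126, with 75.2 in replicate 1 and 52.6 in replicate 2, and lay 259 bp upstream of the start codon in a UTR exon. Upstream of Hoxc10 (chromosome 15, 102966531 to 102966675) it was 133 (78.9 and 53.3) at 275 bp. The Hoxa10 and Hoxc10 values lay close together, with Hoxc10 slightly the higher in both replicates, a difference that was not tested. Upstream of Hoxd10 (chromosome 2, 74691648 to 74691947) it was 47.5 (26.2 and 19.2) at 182 bp, in an intron of Gm28309. The Hoxd10 value was below both others in each replicate, and its match, with 3 mismatches, lay 28.5 bp from the summit.

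Inside the second of 2 coding exons, Hoxc10 and Hoxd10 carried another site, weak in both clusters. Hox genes carry the homeobox in this exon. The Hoxc10 exon site (chromosome 15, 102970793 to 102971092) had 58.5 (31.9 and 25.3) and the Hoxd10 exon site (chromosome 2, 74694089 to 74694388) 30.6 (16.4 and 13.5). Their summits lay 129 and 126 bp before the last coding base. The 2 matches were identical at 13 of 14 bases, and the 33 bases on each side were identical at 50 of 66 (75.8%). Both had 3 mismatches to the motif. No optimal-list summit lay in the coding exon of Hoxa10. Across all 435 pairs of the 30 sites with a match of at most 3 mismatches, the median identity of these 66 bases was 28.8%, and this pair was the highest. The bases compared in this pair were coding sequence, and no other pair had both sites in a coding exon. Whether the identity exceeds that of the rest of the exon was not tested.

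Of the Hoxa and Hoxb pairs, the sites between groups 5 and 4 had signal values of 74.1 (42.9 and 30.3; chromosome 6, 52197317 to 52197616) and 156 (80.9 and 75.5; chromosome 11, 96311668 to 96311824). They lay 5779 bp upstream of Hoxa4 and 7032 bp upstream of Hoxb4. Their matches shared 11 of 14 bases and their flanks 34 of 66 (51.5%), the second highest identity of all pairs. The sites between groups 7 and 6 had 147 (76.9 and 69.3; chromosome 6, 52211653 to 52211816) and 190.2 (107 and 86.0; chromosome 11, 96294606 to 96294806), at 3101 bp upstream of Hoxa6 and 4466 bp upstream of Hoxb6. Their matches shared only 7 of 14 bases and their flanks 21 of 66 (31.8%), near the median of 28.8% over all pairs. The Hoxa7 to Hoxa6 match had 3 mismatches, so its direction is less certain. In both pairs the Hoxb site was the stronger in each replicate. The Hoxc cluster had no site between Hoxc8 and Hoxc6, nor between Hoxc5 and Hoxc4.

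**Figure D3:**
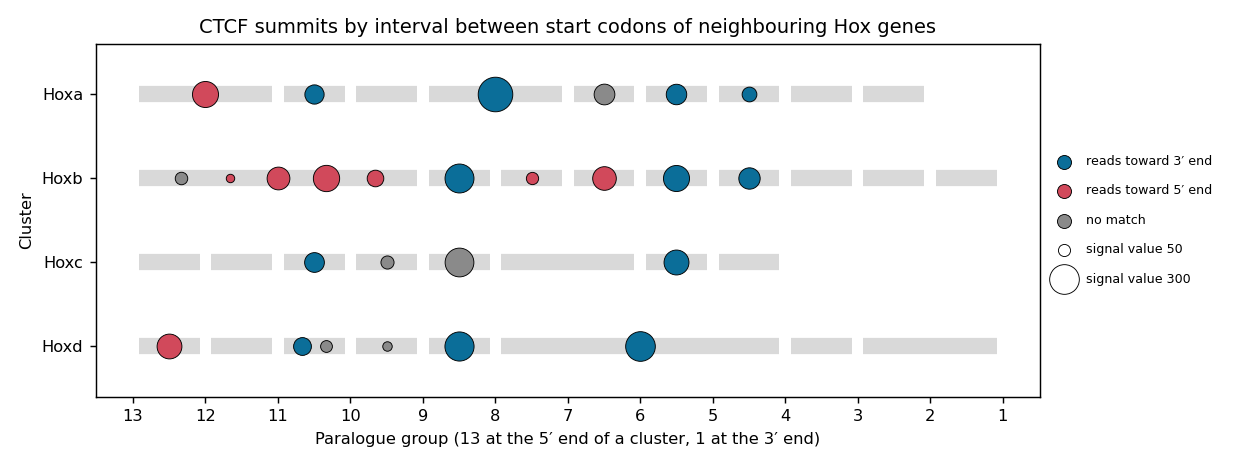
Sites (circles, area proportional to signal value) in the intervals between neighbouring start codons (grey bars), by cluster (y axis) and paralogue group (x axis, 13 to 1). Where an interval holds several sites they are spread evenly in order, so the place within a bar is not a genomic position. Blue circles read toward the 3′ end, red toward the 5′ end and grey have no match with at most 2 mismatches. In all 4 clusters a bar with a site covers the columns 11 to 10, 9 to 8 and 6 to 5, and none has a site to the right of group 4. Some of these bars are wider than the column, because groups are missing: 13 to 9 in Hoxb, 9 to 7 in Hoxa and 8 to 4 in Hoxd.

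Over the whole family, 9 of the 12 steps between neighbouring group numbers were covered by an interval with a site in 2 or more clusters. In 3 steps, 11 to 10, 9 to 8 and 6 to 5, all 4 clusters had one. Every cluster lacks some groups, and there an interval covers several steps. The steps 4 to 3, 3 to 2 and 2 to 1 had a site in 0 clusters. Hoxa11, Hoxa13, Hoxd11, Hoxd12 and Hoxd13, known for patterning limbs and the urogenital tract, had sites that differed between the clusters in number and in distance from the genes. A single site of 231 (131 and 101; chromosome 6, 52257021 to 52257245) stood between Hoxa13 and Hoxa11, in an exon of the transcript 9530018H14Rik, and another of 214 (112 and 104) stood 9928 bp upstream of Hoxa13. In Hoxd there were sites of 40.1 (21.4 and 17.6), 162 (95.6 and 68.9) and 236 (113 and 120) between 12744 and 4556 bp upstream of Hoxd13, the weakest in a UTR exon of Evx2. Evx2 is a homeobox gene next to Hoxd13 that is regulated with it in limbs. Inside the Hoxd cluster a site of 209.8 (121 and 89.2) lay 1915 bp upstream of Hoxd12 and one of 108 (61.5 and 46.2) 5494 bp upstream of Hoxd10. Beyond the group 13 gene, Hoxb and Hoxc had 0 sites within their regions.

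The Hoxb cluster is unusual in that it lacks groups 10, 11 and 12, and 77099 bp separate the start codons of Hoxb13 and Hoxb9. This interval alone held 5 sites, with signal values of 53.3 (28.4 and 24.9), 24.3 (14.3 and 8.88), 177 (107 and 67.0), 236 (120 and 116) and 94.0 (51.9 and 40.8) from Hoxb13 to Hoxb9. The last lay in an exon of the noncoding gene Gm53. The weakest, at the 13.4th percentile, had the most bases marked as repeats of all Hox sites, 102 of the 201 around its summit. All 5 read toward the 5′ end, but the first of them with 3 mismatches, 14.5 bp from the summit, and the second with its match 35.5 bp from the summit. A weak site of 51.3 (23.6 and 25) lay in a UTR exon of Hoxb8 and read toward the 5′ end. The remaining Hoxb site, 167 (85.7 and 79.8), stood 42075 bp beyond the Hoxb1 start codon and was the one site on the 3′ side of a whole cluster.

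The share of sites with a motif match was near that of the list. Within 50 bp of the summit, a match with at most 2 mismatches was found at 22 of 31 Hox sites (71.0%, 53.4 to 83.9%), against 67.2% of the list and 3.43% of windows 1000 bp away. With at most 3 mismatches it was 30 of 31 (96.8%, 83.8 to 99.4%), against 88.0% of the list and 19.7% of windows 1000 bp away. The windows 1000 bp away were those of all 56462 summits of the list, not of the Hox sites alone. The site without any such match was the one 4556 bp upstream of Hoxd13, at 236. The match centre lay at a median of 6 bp from the summit. A CpG, the dinucleotide at which DNA methylation can occur, was present in 20 of the 22 matches (90.9%, 72.2 to 97.5%), against 33.8% of the 37951 matches of the list, and base composition was not matched in this comparison.

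No Hox site had a perfect match. A match with 0 mismatches was present at 0 of 31 Hox sites, for which the Wilson interval reaches 11.0%, and at 9.46% of the list. No perfect match occurred anywhere in the 4 regions, whereas the genome had 6945, of which 77.2% had a summit within 50 bp. There were 6 sites with 1 mismatch and 16 with 2. In the list, sites with fewer mismatches were stronger, with medians of 207 at 0 mismatches, 110 at 1 and 59.8 at 2. The Hox sites had medians of 135 at 1 mismatch and 183 at 2, the reverse of the list's order. The 6 sites with 1 mismatch ran from 24.3 to 407, too few and too spread to set an order. The lowest 2 of them, at 24.3 and 40.1, had their match 35.5 and 34.5 bp from the summit. Hox sites without a match of at most 2 mismatches, 9 in number, had a median of 147 (30.6 to 282), against 38.3 for such sites of the list, and those with a match had 172 (24.3 to 407), against 92.1.

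Motif copies with 1 mismatch mostly had no optimal-list summit, as elsewhere. The 4 regions held 20 of them, and 6 (30%, 14.5 to 51.9%) had an optimal-list summit within 50 bp, against 25.9% of such copies in the genome. Among those without one was a copy between Hoxb3 and Hoxb2 and another between Hoxd4 and Hoxd3, in the stretches free of summits. The nearest optimal-list summits were 34461 and 20712 bp from these copies, although the unfiltered replicate lists had summits 65 and 71 bp from the first. A copy beyond Hoxb1, at chr11:96412133-96412146, lay 33 and 4 bp from a weak peak of both replicates (7.46 and 9.26).
Hoxb3 to Hoxb2, chr11:96346193-96346206, minus strand: gggaggggCCGGCAGGGGGCGGcagcggat
Hoxd4 to Hoxd3, chr2:74736641-74736654, minus strand: agtgggcgCCAGTGGGGGGCAGagctagcc

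Motif direction changed along the clusters rather than favouring 1 end. Of the 22 matches with at most 2 mismatches, 12 read toward the 3′ end (54.5%, 34.7 to 73.1%) and 10 toward the 5′ end. The split was 4 and 1 in Hoxa, 3 and 7 in Hoxb, 2 and 0 in Hoxc and 3 and 2 in Hoxd. With at most 3 mismatches, the sites whose next Hox gene downstream was of group 9 to 13 read toward the 3′ end in 4 and the 5′ end in 12 of 16 cases. For a next gene of group 4 to 8 the counts were 10 and 3 of 13. The 3 exceptions in the second set were the pair between groups 7 and 6 and the Hoxb8 UTR site. The 4 exceptions in the first were the 3 group 10 upstream sites and the site 5494 bp upstream of Hoxd10. Of the 16 sites, 5 belong to the Hoxb13 to Hoxb9 interval, and the split at group 9 was drawn after the directions were seen.

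Sites of different clusters that stood upstream of genes with the same group number mostly read the same way. Of 29 pairs from different clusters with the same group number downstream (at most 3 mismatches), 28 had the same direction, and of 255 pairs from different clusters without an overlapping interval, 110 did. With at most 2 mismatches these were 10 of 11 and 51 of 125. Of the 29 pairs, 10 set a site of the long Hoxb13 to Hoxb9 interval against a group 10 exon site, and without that interval 18 of 19 had the same direction. Pairs in overlapping intervals with unlike group numbers downstream had the same direction in 18 of 41 cases at 3 mismatches and 15 of 29 at 2, near the pairs without an overlapping interval. The exception was the strong Hoxa9 to Hoxa7 site with the weak Hoxb8 UTR site, both upstream of a group 7 gene. Median identity of the flanking 66 bases was 30.3% in the first kind of pair and 27.3% in the second at 3 mismatches. Pairs share sites and so are not separate observations.

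**Figure D4:**
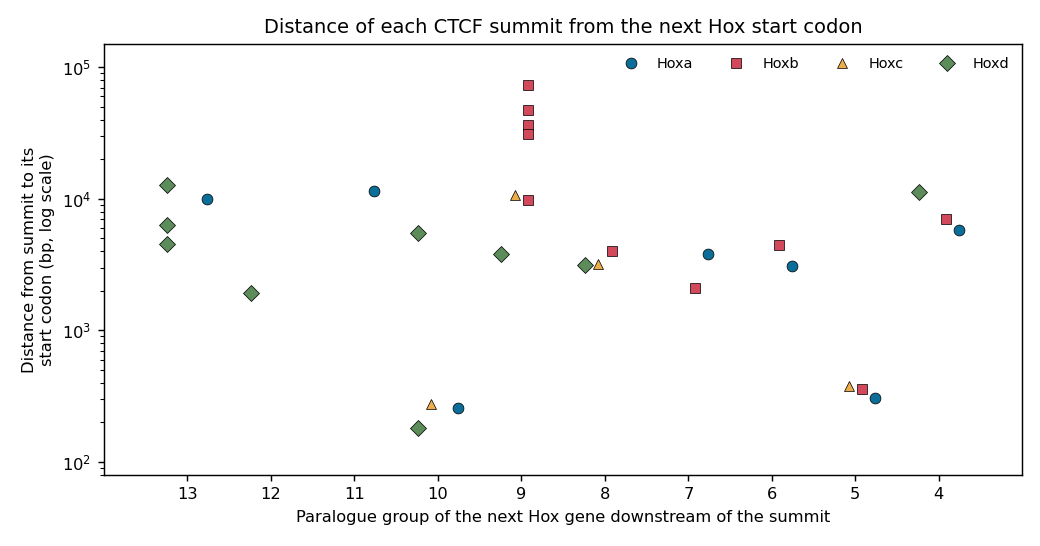
Distance from each summit to the start codon of the next Hox gene downstream (y axis, bp, log scale) against that gene's paralogue group (x axis), with 1 symbol per cluster. The site beyond Hoxb1 has no such gene and is not shown. The sites of the 3 group 5 genes and 1 site of each group 10 gene lie between 182 and 380 bp, and all others at 1915 bp or more.

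By gene, CTCF at the TSS was confined in the optimal list to groups 5 and 10. A summit lay within 1 kb of an annotated TSS in 6 of 38 genes (15.8%, 7.44 to 30.4%), against 36.8% of all protein-coding genes, and these were Hoxa5, Hoxb5, Hoxc5, Hoxa10, Hoxc10 and Hoxd10. All members that exist in groups 5 and 10 were among them. Within 5 kb it was 23 of 38 (60.5%, 44.7 to 74.4%), against 52.3%. The share was thus below the background at 1 kb and near it at 5 kb. A further 15 genes had their nearest summit farther away, from 5232 bp at Hoxc4 to 47045 bp at Hoxd1. They were Hoxa2, Hoxa4, Hoxa11, Hoxb1, Hoxb2, Hoxb3, Hoxb4, Hoxb9, Hoxc4, Hoxc9, Hoxc11, Hoxc12, Hoxc13, Hoxd1 and Hoxd4. Using the 5′ end of the full gene record as the only TSS added Hoxa7, at 42 bp. By that measure Hoxc5 was counted through the Hoxc10 upstream site, 860 bp away, and not through its own site.

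Of the noncoding genes within the clusters, 3 of 52 had one of their TSSs within 1 kb of a summit (5.77%, 1.98 to 15.6%), against 13.1% of all 19028 noncoding genes, which the interval includes. They were 9530018H14Rik (231), Gm53 (94.0) and Hoxd3os1 (299.7). Among the edge genes that neighbour the clusters 4 of 12 did (33.3%), near the 36.8% of all coding genes: Ttll6 (138; 74.5 and 62.4), Hibadh (85.6; 48.7 and 35.2), Lnpk (27.8; 17.9 and 7.89) and Skap1 (27.5; 13.6 and 11.8). Lnpk and Skap1 thus had weak sites, and Lnpk, which lies on the far side of Evx2 from Hoxd13, had the lower replicate 2 value of the pair.

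Among the proteins that act with Hox factors, the TALE homeodomain cofactors of the Pbx, Meis and Pknox families, 3 of 9 genes had a site that close to a TSS, a share (33.3%) near the 36.8% of all coding genes. Meis3 had 233 (124 and 104), Pknox2 223 (132 and 92.4) and Pbx4 76.1 (27.1 and 50.1). Pbx4 was higher in replicate 2 and the other 2 in replicate 1. Of 19 genes that regulate Hox expression, from Cdx factors and retinoic acid signalling to Polycomb and Trithorax proteins, 4 did (21.1%). Among these, Aldh1a2, which makes retinoic acid, had 120 (55.3 and 63.6). The sites of Gdf11 (10.6; 4.33 and 8.42), a ligand that activates posterior Hox genes, and Cyp26a1 (6.12; 9.62 and 14.5), which breaks retinoic acid down, were far below the list's median.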

How the data were processed

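The values are the authors' deposited peak lists on mm10, per the labels: 1 called on each replicate, 1 on the libraries combined, and 2 lists, optimal and conservative, kept after an irreproducible discovery rate (IDR) threshold. Each deposited peak has a signal value, a −log10 q-value, an IDR score in the authors' thresholded lists, and a summit offset. Signal values rank and describe peaks; the score was not used. The replicate lists held 300000 peaks each, so their weakest entries reflect a fixed length. The sources used here do not name the aligner, the peak caller or the scale of its values. A possible control experiment that the labels name was not used.

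The members and gene lists were chosen with earlier results of these data known. With 1 group there was no comparison of conditions and no test. Of 56470 optimal-list peaks, 56462 lay on placed chromosomes. Genome sequence was GRCm38 (mm10) and gene models were GENCODE M21 basic, with TSSs the 5′ ends of its transcripts. Genes were ordered by the 5′-most annotated start codon, because long read-through transcripts would otherwise swap neighbours. The CTCF core motif (14 bases) was searched on both strands, its centre within 50 bp of the summit, and the best match had the fewest mismatches and then the nearest centre. Identity was counted without gaps over 33 bases on each side of the match. In 2000 simulated windows with equal base frequencies the motif search found a match at least as good as the planted one in 100%. It returned the planted position and strand in 98.85%, and found a match in 1.75% of the random windows. Densities have exact Poisson and shares Wilson 95% intervals. Alternatives were the conservative list, optimal-list peaks at or above the median signal value, each replicate alone (its strongest peaks, as many as the optimal list holds), narrower regions, merged summits and other motif and TSS limits.

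Named were the members, the gene start nearest to each summit, and genes of the cofactor, regulator and edge lists with a summit within 1 kb. Other transcripts and positions were named after their values were seen. An item this rule selects is not reported here. Software versions were matplotlib 3.10.9, pysam 0.24.0, scipy 1.17.1, pandas 2.3.3 and numpy 2.4.6 under Python 3.11.15.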

Additional observations from a re-analysis of the deposited data

How the results depend on the processing

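Of 47 alternative values, 42 kept within 1.5 times (counts) or within the interval or spread (other values) of those reported. The 5 others were these. The share of Hox sites with a motif match was 19.4% with at most 1 mismatch and 96.8% with at most 3, against 71.0%. The number of Hox genes with a summit near a TSS was 23 with a limit of 5 kb, against 6. The number of cofactor, regulator and edge genes was 24 with that limit and 7 when peaks below the list's median signal value were dropped, against 11. Leaving out each replicate in turn gave 32 to 33 sites (31 reported), a motif share of 66.7 to 68.8%, a share reading toward the 3′ end of 54.5% both times, 6 Hox genes both times, 12 to 14 related genes and 9 paralogue steps both times. Within 100 bp of the summits in the strongest peaks of replicate 1 lay 31 of the 31 sites, and 30 in those of replicate 2. In the conservative list, in each replicate alone and without the weaker peaks of the optimal list, 1 summit lay on the 3′ side of a group 1 to 4 start codon, as in the optimal list. The share reading toward the 3′ end was 66.7% with at most 1 mismatch and 46.7% with at most 3, on either side of an even split, and its interval covers both. Depth is not known, so whether weaker sites were missed was not tested. No paired analysis was possible because the series holds 1 group.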

Other observations

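Below the optimal list the 4 regions held weak peaks. At a q-value of 0.05, replicate 1 had 58 peaks in them and replicate 2 had 63, of which 27 and 32 overlapped no optimal-list peak. Only 8 of these were found in both replicates with summits within 100 bp, and the strongest had signal values of 12.7 in replicate 1 and 13.7 in replicate 2. They were 2 in Hoxa, 3 in Hoxb, 3 in Hoxc and 0 in Hoxd. The Hoxa pair lay beyond Hoxa2, in introns of the noncoding genes Halr1 (7.77 and 5.91) and Hotairm1 (5.68 and 5.27).

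Of the 8, the 2 with the highest replicate 2 values were also in the conservative list, although not in the optimal one. Both were intergenic and lay between Hoxc13 and Hoxc11, where the optimal list had no site. In replicate 1 a peak between Hoxb7 and Hoxb6, at 12.2, stood above the second of them. One stood between Hoxc13 and Hoxc12 (chromosome 15, 102932438 to 102932737), with a conservative-list signal value of 23.2 and 12.7 and 12.6 in the replicates, and had no motif match with at most 2 mismatches. The other stood between Hoxc12 and Hoxc11 (102943286 to 102943585), with 24.7 and with 10.9 and 13.7 in the replicates, and had a match with 2 mismatches. With them, Hoxc too had a site in the steps from group 13 to 12 and from 12 to 11.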
